A study of Homo sapiens with 6 samples.

Results

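Src family kinases are membrane-attached tyrosine kinases that carry signals from integrins and growth factor receptors to the cytoskeleton, and focal adhesion kinase (FAK, encoded by PTK2) works with them at the sites where cells hold on to their matrix. The 8 genes described here are 4 kinases of the Src family (YES1, SRC, FYN and LYN), the kinase that switches them off (CSK), PTK2, and both ABL kinases (ABL1 and ABL2), which act on the actin cytoskeleton. They were found by gene name among 60666 genes of the expression table outside alternative contigs, 1 row each, and all 8 were among the 12025 genes tested, whose average over the 6 samples was 1 FPKM or more. FPKM is the number of sequenced fragments scaled to the length of the transcript and the size of the library, so levels of different genes can be set side by side per length. The 8 genes were chosen by name as a kinase family, with the FPKM values of doxycycline-treated against control samples, and the fall of YES1 among them, already known. Their values, and whether each passed the threshold used for all genes, are therefore a description that supports nothing by a test.

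A Src family kinase is held closed when CSK phosphorylates a tyrosine in its C-terminal tail, which then folds back onto the kinase's own SH2 domain. Phosphatases that remove this phosphate, or ligands that compete for the folded tail, open the kinase. Open Src binds FAK, and together they phosphorylate scaffolds such as p130Cas (BCAR1) and paxillin (PXN). SRC, FYN and YES1 are expressed in most tissues and overlap in function, whereas several other family members belong mainly to blood cells.

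The samples were cultures of hTERT-RPE1-TOShOFD1, a line of human retinal pigment epithelial cells immortalized with telomerase and infected with a lentivirus that carries a short hairpin RNA against OFD1 under a Tet-On promoter. The 3 control samples are labelled as control and of wild-type genotype, with no doxycycline dose given. The 3 OFD1-depleted samples are labelled as OFD1 knockdown with 200 ng/mL doxycycline, and both groups are at 72 h. All 6 samples carry the hairpin cassette, and none received doxycycline without it, so that an effect of doxycycline and one of the hairpin cannot be told apart. The methods describe drug selection of infected cells and do not say whether the line is 1 clone. OFD1 itself had 3.34, 3.62 and 3.44 FPKM in the controls and 0.795, 0.763 and 1.43 FPKM after OFD1 depletion 1, 2 and 3, which is -1.75 on the log2 scale (standard error 0.255, limma adjusted p = 0.00085).

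The labels give the tissue as retina, and the 7 markers of photoreceptors and neural retina together reached at most 0.206 FPKM in the controls and 0.385 FPKM after OFD1 depletion, with 5 of them at 0 throughout. The epithelial keratins KRT8 and KRT18 and the pigment cell factor MITF were expressed, OTX2 lay between 1.56 and 2.10 FPKM, and RPE65, RLBP1, TYR, TYRP1 and PMEL stayed under 1 FPKM in every sample. BEST1, a marker of mature pigment epithelium, had 4.33 FPKM in OFD1-depleted replicate 2 and under 0.1 FPKM in the other 5 samples. All 6 leukocyte markers together lay between 0.14 and 0.304 FPKM, with CD3E at 0. All 5 proliferation markers were lower in OFD1-depleted samples with a limma adjusted p under 0.05, as were 11.9% of all genes tested. The median log2 fold change was -1.50 for the 5 markers and -0.03 for all genes tested. The summed FPKM of a sample ranged from 408302 to 414547 in control and from 433262 to 493510 in OFD1-depleted samples, and mitochondrially encoded genes took 8.66% to 13.8% and 15.6% to 19.3% of it.

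The end of the coding sequence holds the codon for the tail tyrosine on which CSK acts, and the last 20 codons of YES1, FYN and SRC are shown because they carry the shared switch and show how far the genes differ base by base. They come from the transcripts that GENCODE version 44 marks as canonical, on GRCh38, on the minus strand for YES1 (chr18:724424-724483) and FYN (chr6:111661739-111661798) and on the plus strand for SRC (chr20:37403320-37403379), each within the last coding exon. The capitals mark the tyrosine codon, which is codon 537 in YES1, 531 in FYN and 530 in SRC, and 6 codons lie between it and the stop codon in each.
YES1: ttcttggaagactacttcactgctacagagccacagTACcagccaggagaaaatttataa
FYN: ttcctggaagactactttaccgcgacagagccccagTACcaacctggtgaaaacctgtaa
SRC: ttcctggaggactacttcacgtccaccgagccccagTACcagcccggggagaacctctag

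Of these 60 bases, 11 differed between YES1 and FYN, 14 between YES1 and SRC, and 12 between FYN and SRC. Over the whole coding sequence, YES1 (1632 bases) matched FYN at 69.5% of the aligned bases and SRC at 66.9%, and FYN matched SRC at 68.7%. The longest stretch that YES1 and FYN shared without a difference was 23 bases long, at bases 646 to 668 of the YES1 and 619 to 641 of the FYN coding sequence, namely aaacttgacaatggtggatacta. Between YES1 and SRC the longest was 14 bases. ABL1 and ABL2 matched at 66.9% of aligned coding bases, with a longest shared stretch of 23 bases. The processed pseudogene YES1P1 was listed at 0 in all 6 samples, and no gene that overlaps a member reached 1 FPKM in any sample.

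YES1 mRNA fell in OFD1-depleted cells to 17.4% of the control level. YES1 (ENSG00000176105, GRCh38 chromosome 18 from 721588 to 812546, minus strand) encodes a widely expressed Src family kinase. Its expression was 21.5, 22.4 and 18.6 FPKM in control replicates 1, 2 and 3 and 4.44, 3.2 and 3.27 FPKM after OFD1 depletion 1, 2 and 3. Every OFD1-depleted value lay far below every control value, and replicate 1 was the highest of the 3.
The control mean was 20.9 ± 1.97 FPKM and the OFD1-depleted mean, 3.63 ± 0.694 FPKM, was 5.74-fold lower (± SD, 3 samples per group). On the scale of log2(FPKM + 0.1), the fold change was -2.50 (standard error 0.16, 95% interval -2.85 to -2.15). Set against the control mean, the single OFD1-depleted replicates stood at -2.20, -2.66 and -2.63. The replicate that kept the most OFD1, number 3 at 1.43 FPKM, was not the one that kept the most YES1. A relation between the levels of OFD1 and YES1 was not tested.

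Ranked from the lowest, the log2 fold change of YES1 was number 16 of the 12025 genes tested. Its neighbours were H2AX (-2.59) and NPTX1 (-2.57) just below and ACADM (-2.47) and CCNE2 (-2.47) just above, and the 5th percentile of all genes tested was -0.98. The fold change of YES1 stayed between -2.65 and -2.24 over 17 alternative settings of scaling, filter, pseudocount, model and replicates, including those that left out 1 sample. The proliferation markers and the share of mitochondrially encoded genes given above divided the samples in the same way as YES1, and their part in its fall was not tested. Whether the hairpin acts on YES1 mRNA directly was not tested. In bulk RNA, fewer cells with the transcript and less of it per cell cannot be told apart.

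**Figure D1:**
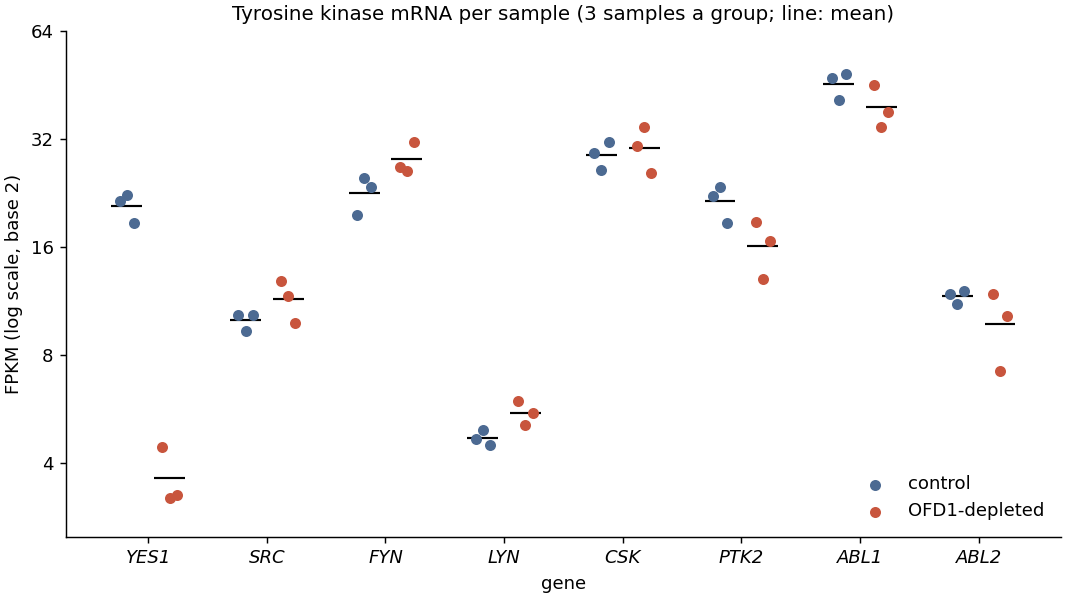
FPKM on a base 2 log axis of the 8 kinase genes in 3 control (blue) and 3 OFD1-depleted (red) samples, with a line at each group's mean. The mean of YES1 drops from 20.9 to 3.63 FPKM, while the 2 group means of each other gene lie within 1.5-fold of each other.

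SRC, FYN and LYN were the other Src family kinases tested. Their means were not lower than in control, and none of them passed the threshold. BLK, too low in level to be tested, did have a lower mean after OFD1 depletion, at 29.1% of control. SRC (chromosome 20 from 37344685 to 37406050) is the founding member of the family, and it had 10.4, 9.36 and 10.4 FPKM in the controls and 12.9, 11.7 and 9.85 FPKM after OFD1 depletion. The groups overlapped, since OFD1-depleted replicate 3 lay among the controls. Its log2 fold change was 0.19 (standard error 0.142, 95% interval -0.13 to 0.50).
FYN (chromosome 6 from 111660332 to 111873452), which is closest to YES1 in coding sequence among the members, had 19.7, 24.9 and 23.6 FPKM in the controls and 26.9, 26.1 and 31.5 FPKM after OFD1 depletion. All OFD1-depleted values lay above all control values, by a margin that was small beside the spread within the control group. The log2 fold change of FYN was 0.31 (standard error 0.14, 95% interval 0.002 to 0.62), which was not past an adjusted p of 0.05, and limma with array weights was the 1 alternative that brought it past, at 0.46.
LYN (chromosome 8 from 55879835 to 56014169), best known from B cells and other blood cells, had 4.68, 4.95 and 4.49 FPKM in the controls and 5.97, 5.12 and 5.53 FPKM after OFD1 depletion. Here too the groups did not overlap, and the log2 fold change was 0.23 (standard error 0.144, 95% interval -0.09 to 0.55). SRC, FYN and LYN kept a log2 fold change above 0 under all 17 alternatives, and under scaling to the same total (TPM) they shrank to 0.04, 0.16 and 0.08.

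The make-up of the family's mRNA changed with YES1. In control samples YES1 gave 37.8%, 35.9% and 32% of the summed FPKM of the 8 Src family genes YES1, SRC, FYN, LYN, FGR, LCK, BLK and FRK, and in OFD1-depleted samples 8.77%, 6.88% and 6.48%. The share of FYN was 38.3% ± 3.26 in controls and 57.2% ± 4.76 after depletion, and SRC 17% ± 1.75 and 23.4% ± 3.37 (± SD, 3 samples per group). The sum includes YES1, so a fall of YES1 alone raises the shares of the other genes. A single scaling factor per sample leaves these shares as they are, whereas quantile normalization moves genes unequally.
In control cells YES1 and FYN stood near each other, with 1.09, 0.899 and 0.791 YES1 FPKM for each FYN FPKM in replicates 1, 2 and 3. In OFD1-depleted cells that ratio was 0.165, 0.123 and 0.104. The ratio of YES1 to SRC went from 2.09 ± 0.298 to 0.316 ± 0.0374 (± SD, 3 samples per group), so that the order of both genes was the opposite in the 2 groups.
The summed FPKM of the family was 57.0, 62.5 and 58.2 in control and 50.6, 46.5 and 50.5 in OFD1-depleted replicates. Without YES1 the sum of the other 7 genes was 35.5, 40.1 and 39.6 FPKM in the controls and 46.1, 43.3 and 47.2 FPKM after OFD1 depletion. When each sample was scaled to the same total, the latter sum was 86.8, 97.0 and 95.5 TPM against 104, 87.8 and 109 TPM, and the groups overlapped.

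**Figure D2:**
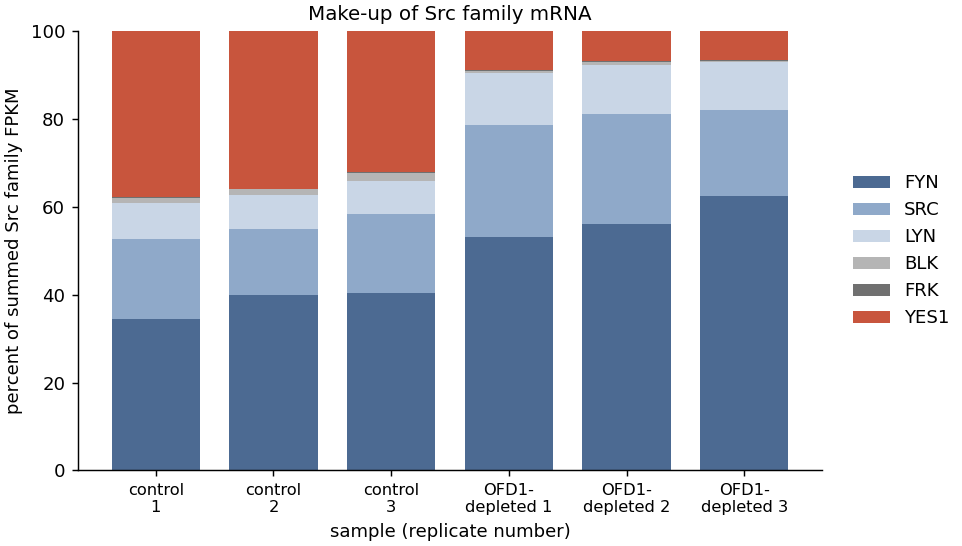
Stacked bars of the percent of summed Src family FPKM given by each gene in each of the 6 samples, with FGR and LCK at 0. The YES1 part at the top shrinks from 35.2% on average in control to 7.38% in OFD1-depleted samples, and FYN fills most of the bar there.

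CSK (chromosome 15 from 74782057 to 74803198), the kinase of the tail tyrosine shown above, stayed close to its control level. It had 29.3, 26.2 and 31.5 FPKM in the controls and 30.8, 34.5 and 25.7 FPKM after OFD1 depletion, and both the highest and the lowest of the 6 values were in the OFD1-depleted group. The log2 fold change was 0.06 (standard error 0.144, 95% interval -0.26 to 0.37), and its sign turned in 5 of the 17 alternatives. For each FPKM of CSK there were 1.92, 2.35 and 1.81 FPKM of YES1, SRC, FYN and LYN together in control and 1.63, 1.33 and 1.95 in OFD1-depleted replicates, so that these ratios overlapped.

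PTK2 (chromosome 8 from 140657900 to 141002216), which encodes FAK, had 22.2, 23.6 and 18.7 FPKM in the controls and 18.8, 13.1 and 16.7 FPKM after OFD1 depletion. The groups met at 1 point, where OFD1-depleted replicate 1 lay just above control replicate 3. The mean was 21.5 ± 2.54 FPKM in the controls and 16.2 ± 2.88 FPKM after OFD1 depletion (± SD, 3 samples per group), or 75.1% of control. With a log2 fold change of -0.42 (standard error 0.16, 95% interval -0.77 to -0.07), PTK2 was not past an adjusted p of 0.05 over all genes, and it was not under any of the 17 alternatives.

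ABL1 (chromosome 9 from 130713016 to 130887675) was the most abundant of the 8 mRNAs, with 47.5, 41.2 and 48.5 FPKM in the controls and 45.4, 34.5 and 38.2 FPKM after OFD1 depletion. ABL2 (chromosome 1 from 179099330 to 179229684), its closest relative, had 11.8, 11.1 and 12.1 FPKM in the controls and 11.9, 7.23 and 10.3 FPKM after OFD1 depletion. In both genes OFD1-depleted replicate 1 lay among the controls and replicate 2 was the lowest of the 6 values.
The log2 fold change was -0.22 for ABL1 (standard error 0.14, 95% interval -0.53 to 0.09) and -0.28 for ABL2 (standard error 0.177, 95% interval -0.67 to 0.11). Without OFD1-depleted replicate 2 they were -0.13 and -0.08. The ratio of ABL1 to ABL2 was 3.91 ± 0.175 in control and 4.10 ± 0.589 in OFD1-depleted samples (± SD, 3 samples per group). OFD1-depleted replicate 2 was also the lowest of its group in YES1 and PTK2 and had the highest summed FPKM of the 6 samples.

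Over the 8 genes, 1 had a limma adjusted p under 0.05 in the lower direction, YES1, and 0 in the higher, against 11.9% and 5.07% of the 12025 genes tested. Unadjusted 95% intervals left out 0 in 3 genes, YES1 and PTK2 lower and FYN higher. The share of all genes tested with such an interval was not computed, so this count has no background. The values of the groups did not overlap in 3 of the 8 genes, YES1 lower and FYN and LYN higher, against 36.1% of all genes tested (22.3% lower and 13.8% higher). Nothing is read from these counts, since the genes were chosen with the comparison known. The median log2 fold change of the 8 was -0.08 and that of all genes tested -0.03. The 95% intervals of the other 7 genes together ran from -0.77 to 0.62 and did not reach that of YES1, which ended at -2.15.

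**Figure D3:**
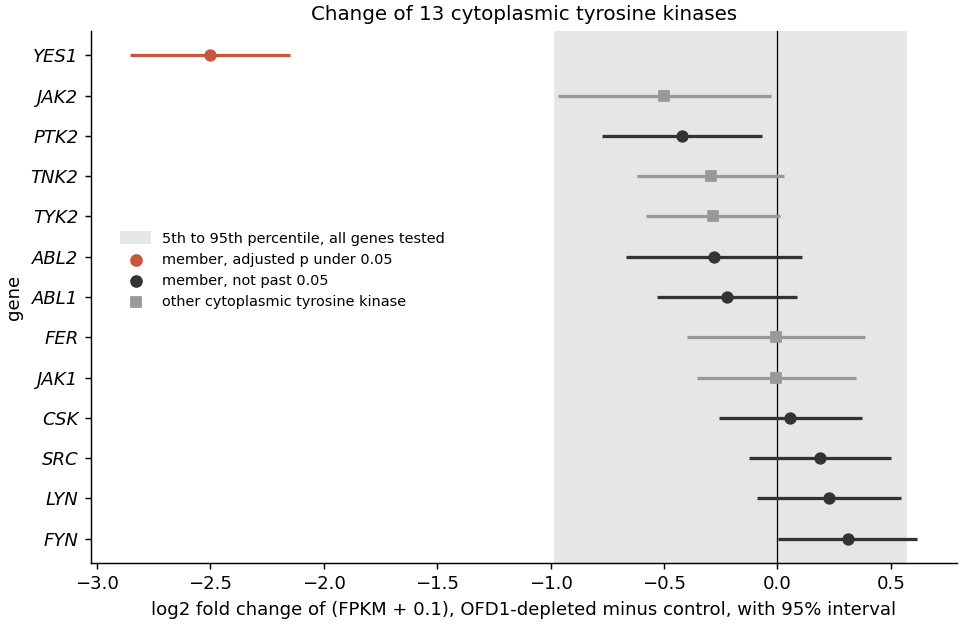
Log2 fold change of (FPKM + 0.1) with its 95% interval from limma for the 8 genes (circles) and 5 other tested cytoplasmic tyrosine kinases (squares), over a grey band from the 5th to the 95th percentile of all 12025 genes tested (-0.98 to 0.57). YES1 at -2.50 is the 1 point outside the band, and the points of the other 12 lie between -0.50 and 0.31.

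Ordered by mean level in control cells, the genes ran ABL1 (45.7 FPKM), CSK (29.0 FPKM), FYN (22.7 FPKM), PTK2 (21.5 FPKM), YES1 (20.9 FPKM), ABL2 (11.7 FPKM), SRC (10.0 FPKM) and LYN (4.71 FPKM). The ranges of FYN, PTK2 and YES1 overlapped, so their order was not resolved, while the other neighbours lay apart. In OFD1-depleted cells the order was ABL1 (39.4 FPKM), CSK (30.3 FPKM), FYN (28.2 FPKM), PTK2 (16.2 FPKM), SRC (11.5 FPKM), ABL2 (9.80 FPKM), LYN (5.54 FPKM) and YES1 (3.63 FPKM). YES1 went from the group of FYN and PTK2 to last place, below the whole range of LYN, and CSK overlapped with FYN and SRC with ABL2.

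Of the Src-related kinases outside the 8, FGR and LCK, which are known from blood cells, were listed at 0 in all samples. BLK had 0.618, 0.754 and 1.07 FPKM in the controls and 0.197, 0.355 and 0.159 FPKM after OFD1 depletion, below the limit for testing. Its groups did not overlap, with every value after OFD1 depletion under every control value. FRK, PTK6 and SRMS stayed under 0.2 FPKM. Among 18 further cytoplasmic tyrosine kinases, 5 were tested and 0 passed an adjusted p of 0.05 by limma, or an unadjusted one except JAK2.
JAK2, a kinase of cytokine receptors, went from 2.48 ± 0.0475 to 1.75 ± 0.361 FPKM (± SD, 3 samples per group), which is a log2 change of -0.50 (limma adjusted p = 0.137). TYK2 (-0.28), TNK2 (-0.29), FER (-0.01) and JAK1 (-0.005) were nearer to 0. PTK2B, the closest relative of FAK, was below the limit, with 0.737 ± 0.134 FPKM in the controls and 0.905 ± 0.222 FPKM after OFD1 depletion (± SD, 3 samples per group).

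The genes that surround these kinases were taken from 6 lists by role, which hold 115 genes in all. Of the 90 tested, 9 (10.0%) were lower and 6 (6.67%) higher with a limma adjusted p under 0.05, beside the 11.9% and 5.07% of all genes. Their median log2 fold change was -0.13. The number of calls changed when a sample was left out. It was 8 without control replicate 1 or without control replicate 3, and 20 without OFD1-depleted replicate 2. Over all genes, 2039 passed in the main fit, and 1143, 1138 and 2863 in these settings. Such fits also rest on fewer samples, and the cause of the change was not tested. With limma's array weights the number of list genes was 35, and with no filter on low values it was 6. Those 6 were SH3KBP1, RASA1, ARHGEF7, ITGB3, ITGB5 and ITGA3, so that the other 9 genes lost the threshold there.

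Among 14 tested genes that set Src family activity, 2 (14.3%) fell and 2 (14.3%) rose, beside 11.9% and 5.07% of all genes tested. SH3KBP1, an adaptor of the ubiquitin ligase CBL, fell from 18.3 ± 1.74 to 9.11 ± 0.796 FPKM (± SD, 3 samples per group), a change of -0.998 on the log2 scale (limma adjusted p = 0.000519). PAG1, the membrane adaptor that recruits CSK to Src family kinases, fell from 1.55 ± 0.0738 to 0.781 ± 0.147 FPKM (± SD, 3 samples per group), at -0.92 on the log2 scale (limma adjusted p = 0.0402). It lost the threshold when any 1 of the 6 samples was left out, and over all alternatives its limma adjusted p reached 0.153.
SOCS1, an inhibitor of cytokine receptor signalling, rose from 2.33 ± 0.638 to 4.68 ± 0.499 FPKM, and the ubiquitin ligase CBLB from 1.97 ± 0.269 to 3.67 ± 0.6 FPKM (± SD, 3 samples per group). Their log2 fold changes were 1.01 and 0.86 (limma adjusted p = 0.00928 and 0.0135), and CBLB lost the threshold with TPM scaling and without control replicate 2 or OFD1-depleted replicate 3. The phosphatases that act on the tail or on FAK and its scaffolds were not past the threshold, among them PTPN1 (0.22), PTPRA (-0.11), PTPN11 (-0.23) and PTPN12 (0.22), and neither was CBL (-0.54).

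Of 30 tested substrates and scaffolds of focal adhesions, 2 (6.67%) fell and 2 (6.67%) rose, beside 11.9% and 5.07% of all genes tested. RASA1, which turns off Ras, fell from 15.3 ± 1.36 to 8.87 ± 1.57 FPKM (log2 fold change -0.79, limma adjusted p = 0.00606), and ARHGEF7, an exchange factor for Rac and Cdc42, from 9.83 ± 0.161 to 5.79 ± 0.92 FPKM (log2 fold change -0.76, limma adjusted p = 0.00515; ± SD, 3 samples per group). Both kept the threshold under all 17 alternatives.
ZYX, a protein of mature adhesions and stress fibres, rose from 319 ± 5.76 to 493 ± 68.1 FPKM (log2 fold change 0.62, limma adjusted p = 0.0124) and lost the threshold without control replicate 1 or 3. NEDD9, a scaffold related to p130Cas, rose from 8.77 ± 0.19 to 13 ± 1.64 FPKM (± SD, 3 samples per group), at 0.56 on the log2 scale (limma adjusted p = 0.0179). It lost the threshold in 5 of the 6 comparisons with a sample left out, all but that without OFD1-depleted replicate 2, and also with TPM scaling and with equal totals outside the mitochondrial chromosome. Among the other scaffolds, BCAR1 was at -0.10, PXN at -0.11, TLN1 at -0.27 and VCL at 0.15 on the log2 scale, none past the threshold. CASS4 at 0.65 and CRKL at -0.52 lay further from 0 and were just short of the threshold (limma adjusted p = 0.055 and 0.0552).

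Of 23 tested substrates at actin filaments and junctions, 1 (4.35%) fell and 1 (4.35%) rose, beside 11.9% and 5.07% of all genes tested. ENAH, which promotes filament elongation, rose from 9.63 ± 0.632 to 15.7 ± 3.16 FPKM (± SD, 3 samples per group), which is a log2 change of 0.68 (limma adjusted p = 0.0136), and lost the threshold with TPM scaling and without control replicate 1 or 3. CDH2, which encodes N-cadherin, fell from 74.9 ± 4.65 to 54.2 ± 7.68 FPKM (± SD, 3 samples per group), which is a log2 change of -0.47 (limma adjusted p = 0.0387). It lost the threshold in 9 of the 17 alternatives, which were those without any 1 of the 3 controls or without OFD1-depleted replicate 1, median of ratios and quantile scaling, equal totals outside the mitochondrial chromosome, no trend and no filter. CTTN, the cortactin gene and a classical Src substrate, was at -0.04, and the ABL partner ABI1 at 0.19, neither past the threshold. ABI2 at -0.44 and RIN1 at -0.46 were also short of it (limma adjusted p = 0.0639 and 0.0613). Of the 23 genes, 13 had a log2 fold change under 0.

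Of 19 receptors and integrin subunits upstream of Src family kinases, 4 (21.1%) fell and 1 (5.26%) rose, beside 11.9% and 5.07% of all genes tested. Whether this list differs from all genes was not tested. The integrin subunits ITGB5 (-0.91) and ITGA3 (-0.94) fell and ITGB3 (1.40) rose under each alternative in which they were tested. ITGB3 went from 1.29 ± 0.256 to 3.56 ± 0.487 FPKM, ITGB5 from 120 ± 15.7 to 63.6 ± 6.12 FPKM and ITGA3 from 419 ± 69.3 to 217 ± 23.9 FPKM (± SD, 3 samples per group), with limma adjusted p of 0.00125, 0.00121 and 0.00201. ITGA5 (-0.52, limma adjusted p = 0.044) and EGFR (-0.70, limma adjusted p = 0.0194) fell as well. ITGA5 lost the threshold in 5 of the 6 comparisons with a sample left out, all but that without control replicate 2, and also with median of ratios scaling and without the trend, and EGFR without control replicate 1 or 3. ITGB1, the partner shared by most of the alpha subunits, was at 0.07 and MET at -0.02. DDR2 at -0.54 and PDGFRB at -0.43 lay lower, also not past the threshold (limma adjusted p = 0.0989 and 0.119). Of the 19 genes, 17 had a log2 fold change under 0, and the median was -0.19.

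**Figure D4:**
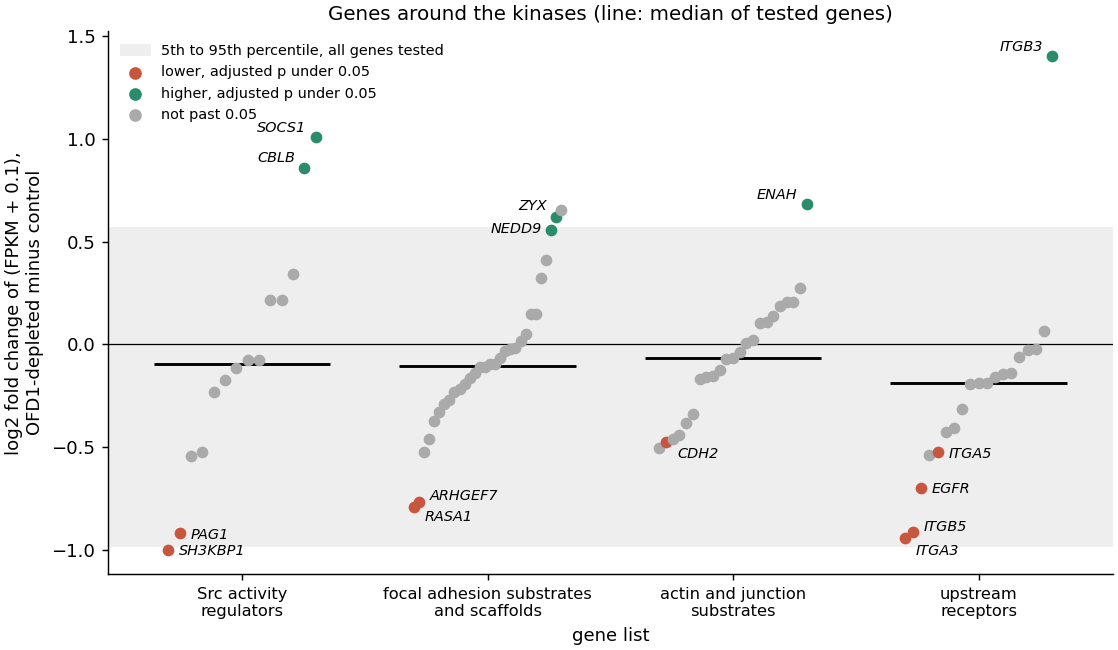
Log2 fold change of (FPKM + 0.1) for the tested genes of 4 lists, each point a gene, coloured where the limma adjusted p is under 0.05, with a line at each list's median and a grey band from the 5th to the 95th percentile of all genes tested. The medians lie between -0.19 and -0.07, and most genes stay inside the band.

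The genes whose pattern over the 6 samples was most like that of YES1, by Pearson's r of log2(FPKM + 0.1), were PTTG1IP, PSMD11, CKAP5, VKORC1L1 and C1orf21, with r from 0.9987 to 0.9996. PTTG1IP went from 184 ± 5.5 to 92.4 ± 6.01 FPKM and CKAP5, a microtubule polymerase of the spindle, from 20.7 ± 0.668 to 7.80 ± 0.69 FPKM (± SD, 3 samples per group). There were 103 genes with r of at least 0.99, and these values mostly show the division into 2 groups that all points share. Within the control group replicate 2 was highest and replicate 3 lowest in YES1 and in all 5 of these genes, and within the OFD1-depleted group replicate 1 was highest and replicate 2 lowest. The choice of the genes by r over these same samples favours such a shared order, so it is no separate result.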

How the data were processed

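RNA was measured in 3 control and 3 OFD1-depleted samples of one RPE1 line, grouped by their titles. Per the methods and processing notes, the authors prepared directional libraries, aligned paired-end reads with HISAT2 (version 2.0.5) to GRCh38, summarized them with StringTie (version not given in the sources used here) and deposited 1 FPKM value per gene and sample. The strand setting of the counting is not given in the sources used here. The table lists 67130 genes, of which 6464 lie on alternative contigs and were at 0. It holds no read counts, and FPKM times length of single-exon genes lay within 0.05 of a whole multiple of 1 step for only 21.0% to 24.9% of low values, so depth was not recovered and no count test was used. The study calls the columns of its expression chart for this experiment biological replicates, and the labels do not say how the cultures were separated, so p-values measure only the spread between these samples.

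Expression was compared with limma (version 3.58.1, R 4.3.3) on log2(FPKM + 0.1) with a variance trend, for genes averaging 1 FPKM or more over all samples, and p-values were two-sided and Benjamini-Hochberg adjusted over 12025 genes. The pseudocount understates changes of low genes. Intervals are limma's 95% intervals and cover the spread between these samples. The fit was tested on simulated data. Named genes were OFD1, the 8 members, list genes past the threshold and the 5 genes with the highest r to YES1. The genes next to YES1 in rank and the other list genes named short of the threshold were chosen after their values were seen. The members and lists were chosen with earlier results of these data known.

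Coding sequences of canonical transcripts (GENCODE version 44, GRCh38) were aligned globally with Biopython 1.88 (match 1, mismatch -1, gap opening -5, gap extension -0.5). Identity is the share of aligned bases that match. The fit was repeated with a pseudocount of 1 or 0.01, without a filter or with one at 5 FPKM, and with TPM, median-of-ratios and quantile scaling, no trend, array weights, a replicate block and each sample left out. Scaling to the same total outside the mitochondrial chromosome was added after the data were seen.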

Additional observations from a re-analysis of the deposited data

How the results depend on the processing

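Of 203 values from 12 results under 17 alternatives, 188 led to the same direction and call or, for counts, to a value less than 1.5 times away. OFD1 kept its call in each alternative that tested it (adjusted p up to 0.0222) and had no value with the filter at 5 FPKM. Array weights took the members past the threshold to 2, the second being FYN at 0.46. The log2 fold change of CSK, not past the threshold in any alternative, was -0.0898 with TPM scaling, -0.0564 with array weights and -0.0021 with equal totals outside the mitochondrial chromosome, and with each sample left out it ranged from -0.0418 to 0.1706, below 0 without control replicate 2 (-0.0137) or OFD1-depleted replicate 2. With each sample left out, the members past the threshold stayed at 1, the list genes ranged from 8 to 20 and all genes from 1138 to 2863. Without a filter, 6 list genes and 1083 of all genes passed, and with array weights 35 and 3956. The cause was not tested. By scaling, the share of lower genes among all those past the threshold was 70.1% as reported, 88.1% with TPM and 54.9% with quantile normalization, with a median shift per gene of -0.145 and 0.103 on the log2 scale, and YES1 was then at -2.64 and -2.40. The replicate block gave YES1 -2.50, 1 member, 19 list genes and 2296 genes in all. Deviations of samples with the same number correlated at 0.058, 0.048 and 0.011, so the numbers were not taken to pair the samples. The table gives no depth, which limits statements on genes under 1 FPKM such as BLK.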
